A study of Mus musculus with 49 samples.

Results

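The 26S proteasome is the protease that takes apart ubiquitin-tagged proteins in the cytoplasm and nucleus, and the genes for its standard subunits were followed here across 49 libraries of mouse frontal cortex. They were taken by name, as the Psma, Psmb, Psmc and Psmd genes, without the inducible subunits Psmb8, Psmb9 and Psmb10 and the thymus-restricted Psmb11, and with a mean deposited log2 value of at least 5. Of 24495 genes in the table, 39 fitted the name pattern, the 4 named exceptions and the germ-cell subunit Psma8 (3.68) fell out, and 34 remained. The lowest of the 34, Psmd10, had a mean of 9.77, so no gene lay close to the limit. They comprise 7 alpha-ring genes, 7 beta-ring genes, 6 ATPases of the base, 3 other base genes, 8 lid genes and 3 genes whose names follow the subunits but whose products are assembly chaperones of the base that leave the finished particle (Psmd5, Psmd9 and Psmd10). All 34 passed the filter on low values in each comparison below.

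The particle has a barrel-shaped core of alpha and beta rings, in which Psmb5, Psmb6 and Psmb7 carry the chymotrypsin-like, caspase-like and trypsin-like activities. A regulatory cap sits on the core, with a base of ATPases that unfold the substrate and a lid whose subunit Psmd14 removes the ubiquitin chain. Neurons depend on it for the turnover of synaptic proteins, and misfolded or aggregating proteins, human amylin among them, are studied as loads on it. When proteasome activity falls, the transcription factor Nfe2l1 is known to raise the subunit genes through antioxidant response elements.

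All mice were on a high fat diet, and no group on another diet was analysed here. Wild-type mice were fed for 2 months (n = 9) or 4 months (n = 10). The libraries labelled AKO, for amylin knockout, came from mice fed for 4 months (n = 10). The conditional human amylin transgenic mice, also fed for 4 months, were injected with vehicle (n = 10) or tamoxifen (n = 10), and tissue was taken 2 months after injection. The labels do not name the promoter or Cre that drives the transgene, and give no sex, strain, age, litter or batch. Animals of the transgenic line are therefore set apart from wild-type mice by line, injection and any unnamed batch together, which cannot be told apart. P-values measure the spread between libraries, since nothing says what separates the animals of a group.

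Reads recovered from the deposited values came to 29.2 to 75.6 M per library (median 42.0 M), with group medians between 37.8 and 47.1 M. Reads counted as the mouse amylin gene Iapp were found almost only in the libraries labelled AKO. All 10 of these held them (36 to 116, 596 in all). The wild-type and tamoxifen libraries held 0 and the vehicle libraries 1. With 0 reads in wild type, a loss of Iapp could not show here. What the reads in the AKO-labelled libraries stand for was not tested. The AKO group is therefore called by its label throughout. Markers of cortical neurons were high in every group, with the mean log2 of 7 excitatory markers at 12.28 to 12.58. Markers of other regions varied over the libraries. The mean log2 of 6 olfactory bulb markers ran from 5.14 to 12.77 and that of 6 striatal markers from 8.59 to 12.49. Whether the dissection differed was not tested. The proteasome genes were also high as a whole in 3 single libraries, AKO replicate 6, wild-type 2-month replicate 37 and vehicle replicate 3, and the counts and medians of the comparisons are given with and without them.

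Promoter sequence is shown for 6 of the genes, as the stretch in front of the start site of 4 genes called where a transgenic group was set against wild type (Psmd14, Psma4, Psmd9 and Psmd12) and of the catalytic genes that hold an antioxidant response element core (Psmb5 and Psmb6). Each line gives 250 bases before the RefSeq start in GRCm38.p6, 5′ to 3′ on the gene's strand. In GENCODE M21, the source of gene positions here, the principal transcripts of Psma4, Psmb5 and Psmd12 start earlier. The ends of their stretches therefore lie inside those transcripts. Capitals mark matches to any of the 5 motifs searched, which are named after the lines.
Psmd14, chr2:61711444-61711693, plus strand: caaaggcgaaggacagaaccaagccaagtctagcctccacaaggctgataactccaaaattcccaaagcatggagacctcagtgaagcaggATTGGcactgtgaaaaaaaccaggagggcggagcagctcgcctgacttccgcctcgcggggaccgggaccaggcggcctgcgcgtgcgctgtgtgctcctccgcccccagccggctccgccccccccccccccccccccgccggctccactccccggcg
Psma4, chr9:54950609-54950858, plus strand: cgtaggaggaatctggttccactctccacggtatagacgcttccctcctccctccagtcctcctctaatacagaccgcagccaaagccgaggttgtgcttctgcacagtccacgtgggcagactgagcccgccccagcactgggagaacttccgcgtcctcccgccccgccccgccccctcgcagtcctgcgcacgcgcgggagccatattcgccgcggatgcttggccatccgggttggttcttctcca
Psmb5, chr14:54617996-54618245, minus strand: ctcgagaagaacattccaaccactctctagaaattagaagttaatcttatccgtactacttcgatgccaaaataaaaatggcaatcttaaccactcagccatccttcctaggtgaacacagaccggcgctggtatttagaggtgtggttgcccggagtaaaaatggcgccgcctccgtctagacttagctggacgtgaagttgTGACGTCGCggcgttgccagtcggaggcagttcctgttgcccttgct
Psmb6, chr11:70525107-70525356, plus strand: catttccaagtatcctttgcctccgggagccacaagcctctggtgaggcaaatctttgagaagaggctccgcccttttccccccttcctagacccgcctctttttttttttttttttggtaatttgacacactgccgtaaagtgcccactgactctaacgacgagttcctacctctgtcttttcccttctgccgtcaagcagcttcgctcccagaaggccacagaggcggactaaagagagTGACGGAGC
Psmd12, chr11:107479278-107479527, plus strand: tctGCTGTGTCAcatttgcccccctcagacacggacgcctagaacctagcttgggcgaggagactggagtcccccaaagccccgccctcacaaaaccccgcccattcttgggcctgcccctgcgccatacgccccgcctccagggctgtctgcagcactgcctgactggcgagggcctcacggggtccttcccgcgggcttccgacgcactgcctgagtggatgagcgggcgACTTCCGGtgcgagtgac
Psmd9, chr5:123227940-123228189, plus strand: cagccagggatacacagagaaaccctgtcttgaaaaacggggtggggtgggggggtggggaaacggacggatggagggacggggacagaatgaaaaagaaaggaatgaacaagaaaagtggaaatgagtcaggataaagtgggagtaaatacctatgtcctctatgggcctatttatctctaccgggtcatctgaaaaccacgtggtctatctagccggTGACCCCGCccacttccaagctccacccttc

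RefSeq windows of 300 bases (250 before to 50 after a start) were at hand for 28 of the 34 genes, 30 windows in all. No window was at hand for Psmb1, Psmb2, the catalytic gene Psmb7, Psmc3, Psmd3 and Psmd7, so their promoters were not searched. The antioxidant response element core TGACNNNGC, the letters that Nfe2l1 and Nfe2l2 bind with their partners, was found on either strand in 5 of 30 windows (16.7%), against 12.4% of all 32851 windows and 14.1% of the windows of tested genes. Those 5 genes were Psmb5, Psmb6, Psmc6, Psmd9 and Psmd12. The ETS site CCGGAAGT was in 7 of 30 windows (23.3%), those of Psma6, Psmc1, Psmc2, Psmd6, Psmd12 and Psmd13, with 2 windows of Psmc2, against 3.89% of all windows and 6.62% of the 15246 windows of tested genes. The window of Psmd13 lies wholly after the start of its principal transcript in GENCODE M21. CCAAT was in 11 windows (36.7% against 37.4%). The YY1 site AAGATGGCG was in 2 (6.67%, against 1.40% of all windows and 2.45% of those of tested genes) and the nuclear respiratory factor 1 core GCATGCGC in 2 (6.67%, against 2.71% and 4.55%). No match of a motif overlapped one of another motif, and 9 of the 28 genes held none of the 5.

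The 34 genes were expressed at unequal levels although most of their products enter the particle in equal numbers. Levels are compared between genes per length, as normalised reads per kb of the principal transcript, averaged over 49 libraries with the SD over them. The highest were the ATPase Psmc5 (6471 ± 309, chr11:106256154-106263120), the beta subunit Psmb4 (5614 ± 347) and the trypsin-like subunit Psmb7 (5461 ± 295). The lowest were the chaperones Psmd9 (472 ± 46, chr5:123228190-123250131), Psmd5 (488 ± 26) and Psmd10 (614 ± 60), so that the span from Psmc5 to Psmd9 was 13.7-fold. Among genes for lasting subunits, the lid gene Psmd11 was lowest (789 ± 50).

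By role, the median per kb was 4986 for the 3 catalytic beta genes, 3872 for the ATPases, 3457 for the other base genes, 3258 for the other beta genes, 2829 for the alpha ring, 2448 for the lid and 488 for the chaperones. Within a role the levels still ranged 3.77-fold in the core, 3.89-fold among the ATPases and 3.92-fold in the lid. The catalytic genes themselves differed, with Psmb6 at 4986 ± 324 and Psmb5 at 2904 ± 206. The order depends on the transcript taken: Psma2 and Psma3, with principal transcripts of 2911 and 2846 bases, were the lowest of the alpha ring, and Psmb1 went from rank 12 to rank 28 when all its exons were counted. Exons of 8 of the genes share bases with another gene in GENCODE M21, 6 of them on the opposite strand (405 bases of Psmb7 with Nek6, 114 of Psma4 with AY074887). The sources used here do not say whether counting used strand, so reads from such stretches cannot be assigned with certainty.

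**Figure D1:**
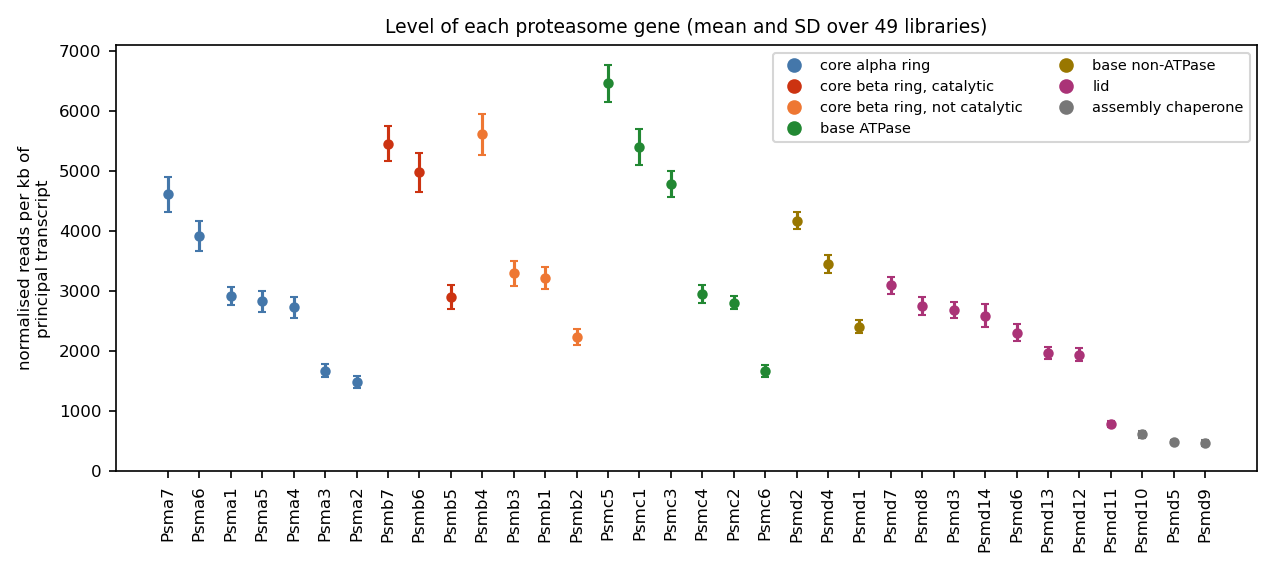
Normalised reads per kb of principal transcript (y axis) for each of the 34 proteasome genes (x axis), coloured by role. Points are means and bars SDs over 49 libraries. Psmc5 stood highest at 6471 and the 3 assembly chaperones lowest, at 472 to 614.

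The proteasome genes varied little between animals. After group means were subtracted, the SD over libraries ranged from 0.043 to 0.113 log2 units with a median of 0.072. The median SD of the 7248 tested genes in the same range of levels was 0.117, and 8.72% of those genes had an SD under 0.072. The steadiest were the base scaffold Psmd2 (SD 0.043), the ATPase Psmc2 (0.051) and the lid subunit Psmd3 (0.056). The most variable were the chaperones Psmd10 (0.113) and Psmd9 (0.105) and the beta subunit Psmb2 (0.090). Over all 49 libraries Psmd2 spanned 0.225 log2 units, and Psmd10 spanned 0.637.

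Wild type at 4 months is the control of both the AKO and the vehicle comparison and enters the comparison of diet times, so these share samples. The first comparison was made for the lack of amylin that the AKO label names, at 4 months of diet. Whether amylin was lacking in these mice was not tested. None of the 34 genes passed the limma test in the libraries labelled AKO against wild type, where 0.786% of all tested genes did (0.282% higher, 0.504% lower). The mean over the 34 genes was 12.02 ± 0.06 (SD, n = 10) in the libraries labelled AKO and 11.97 ± 0.04 (n = 10) in wild type. The differences were small and mostly positive: 30 of 34 genes had a higher mean in the AKO-labelled group, with a median of 0.041 log2 units against 0.005 over all tested genes. Without AKO replicate 6, the median was 0.026 and 27 genes were positive. Unadjusted p was under 0.05 for 6 genes (17.6%), and for 2131 of all 15269 genes.

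The 5 genes with the smallest p in this comparison were 3 alpha subunits, a lid subunit and a catalytic subunit. Psma3 differed by 0.07 (SE 0.03, limma adjusted p = 0.288), Psma4 by 0.09 (SE 0.04, 0.303), Psma7 by 0.08 (SE 0.04, 0.341), the lid gene Psmd6 by 0.08 (SE 0.04, 0.344) and Psmb7 by 0.07 (SE 0.03, 0.350). Every gene's 95% interval lay between -0.10 and 0.20 log2 units, and the catalytic genes had 95% intervals of -0.10 to 0.08 (Psmb5), -0.02 to 0.13 (Psmb6) and 0.00 to 0.14 (Psmb7). A shift with transcript length ran through the same comparison. Tested genes in the proteasome genes' range of levels had a median of 0.047 at up to 1500 bases of transcript. It was 0.007 from there to 3000 bases and -0.019 over 3000 bases. The proteasome genes had medians of 0.056 (16 genes), 0.037 (16 genes) and 0.025 (2 genes) in the same bins. All 6 neuronal activity genes tested, Fos and Arc among them, were called lower in the AKO-labelled libraries (median -1.10). Of 7 oligodendrocyte markers, 0 had a positive difference and 2 were called lower (median -0.18). All 6 striatal markers (median 0.42) and 0 of 6 olfactory bulb markers (median -0.89) had a positive difference, with 0 called. The part of these genes and markers in the result was not tested.

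Tamoxifen was compared with vehicle to ask what inducing human amylin for 2 months goes with. The human transcript was not analysed here, so whether tamoxifen induced it in these libraries was not tested. No wild-type group injected with tamoxifen was analysed, so the drug itself and the induction cannot be told apart. None of the 34 genes passed the limma test, nor did any other gene (0% called). The mean over the 34 genes was 11.94 ± 0.04 (SD, n = 10) after tamoxifen and 11.96 ± 0.03 (n = 10) after vehicle. Means were lower after tamoxifen for 28 of the 34 genes, with a median of -0.032 against -0.001 over all genes. Without vehicle replicate 3, the median was -0.019 and 27 genes were lower. In the fit with all libraries, unadjusted p was under 0.05 for 2 (5.88%, against 502 or 3.30% of all genes).

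The smallest p belonged to Psmb5, the chymotrypsin-like subunit. It ranged from 11.10 through a median of 11.25 to 11.45 after tamoxifen and from 11.27 through 11.33 to 11.42 after vehicle. The groups overlapped, and the difference of -0.09 (95% interval -0.16 to -0.01) had a limma adjusted p of 0.9998. The chaperone Psmd5 (0.06), the alpha subunit Psma5 (-0.06), the beta subunit Psmb3 (-0.07) and the ubiquitin receptor Psmd4 (-0.05) came next, all with an adjusted p of 0.9998. The 95% intervals of the 34 genes lay between -0.16 and 0.18. Each holds for its own gene and not for all 34 at once. For Psmb6 the interval was -0.14 to 0.04, and for Psmb7 it was -0.06 to 0.06.

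Between 2 and 4 months of diet in wild-type mice, none of the 34 proteasome genes passed the limma test although 8.69% of all genes did (4.54% higher, 4.15% lower). The mean over the 34 genes was 11.98 ± 0.05 (SD, n = 9) at 2 months and 11.97 ± 0.04 (n = 10) at 4 months. The median difference, 4 months minus 2 months, was -0.002 against 0.003 over all genes, and 14 genes were positive and 20 negative. Without wild-type 2-month replicate 37, the median was 0.006 and 20 were positive, and still none of the 34 passed where 18.6% of all genes did. Unadjusted p was under 0.05 for 5 genes (14.7%, against 27.2% of all genes). The 5 genes with the smallest p were all lower at 4 months and belonged to the cap or its assembly, as do most of the 34. They were Psmd3 (-0.09, limma adjusted p = 0.089), the ATPase Psmc2 (-0.08, 0.096), Psmd11 (-0.10, 0.112), Psmd5 (-0.10, 0.116) and Psmd2 (-0.06, 0.143). Tested genes in the same range of levels had a median of 0.029 at up to 1500 bases of transcript and -0.031 over 3000 bases. The part of transcript length in these differences was not tested. The catalytic genes had 95% intervals of -0.03 to 0.14 (Psmb5), -0.04 to 0.12 (Psmb6) and -0.05 to 0.09 (Psmb7). Diet duration and the age of the mice cannot be told apart here.

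**Figure D2:**
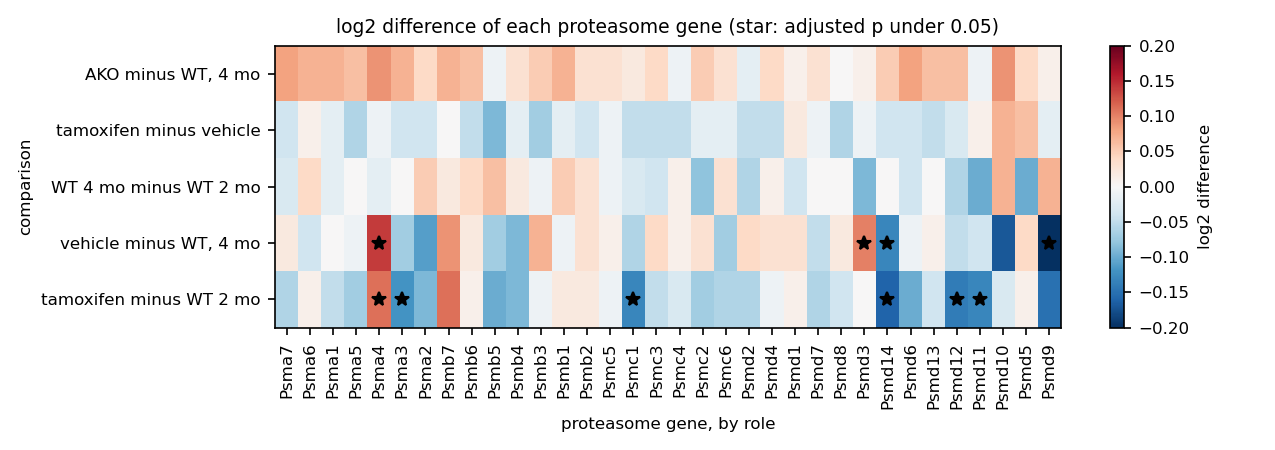
log2 difference (colour, from -0.20 in blue to 0.20 in red) of each of the 34 proteasome genes (columns, by role) in 5 comparisons (rows). Stars mark an adjusted p under 0.05 and appear only in the rows that set a transgenic group against wild type, with 4 in the vehicle row and 6 in the row of tamoxifen against wild type at 2 months.

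Single genes passed the test where the transgenic line was set against wild type. In vehicle-injected transgenic mice against wild type at 4 months, 2 of the 34 genes were higher and 2 lower (11.8% called). Of all genes 6.17% were called, 2.58% higher and 3.59% lower. Meanwhile the median over the 34 was 0.001 against 0.000 over all genes, with 17 positive and 17 negative.

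Psmd14, the lid's deubiquitinase (chr2:61711694-61800376), ran from 11.81 through a median of 11.88 to 11.99 in vehicle mice and from 11.93 through 12.03 to 12.05 in wild type. All 10 vehicle libraries lay below the wild-type mean, with some overlap, and Psmd14 fell by 8.33% (-0.13, SE 0.03, limma adjusted p = 0.0093). Psmd9, a chaperone of base assembly, ran from 9.92 through 10.14 to 10.40 in vehicle mice and from 10.27 through 10.33 to 10.49 in wild type. It fell by 13.1% (-0.20, SE 0.05, adjusted p = 0.016), with 9 of 10 vehicle libraries below the wild-type mean and overlapping ranges.

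Psma4, an alpha-ring subunit (chr9:54950790-54958030), went the other way. It ran from 11.54 through 11.72 to 11.79 in vehicle mice and from 11.47 through 11.55 to 11.65 in wild type, and rose by 10.2% (0.14, SE 0.04, limma adjusted p = 0.022). Psma4 lost the call when libraries were scaled to total reads (adjusted p = 0.074). Psmd3, a lid subunit, rose by 7.25% (0.10, SE 0.03, adjusted p = 0.048), from 12.45 through 12.53 to 12.63 in vehicle mice against 12.32 through 12.44 to 12.52 in wild type. Psmd3 lost the call in 17 of the 20 fits that left out a single library, with adjusted p up to 0.085. The next gene, the alpha subunit Psma2, did not pass (-0.11, adjusted p = 0.084).

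Vehicle replicate 3 bore on the count. Without it, 2 genes were higher and 6 lower and the median was -0.011, where 9.79% of all genes were called, and Psma3 (-0.10, limma adjusted p = 0.017), Psmb4 (-0.10, 0.031), Psma2 (-0.12, 0.038) and the chaperone Psmd10 (-0.19, 0.041) were then called lower. Without wild-type replicate 21, 4 genes were lower, Psmd10 and Psma2 being added, where 5.45% of all genes were called. The catalytic genes were not called: Psmb5 differed by -0.07 (95% interval -0.14 to 0.00), Psmb6 by 0.02 (-0.06 to 0.09) and Psmb7 by 0.09 (0.02 to 0.15, adjusted p = 0.099). Beside these differences, all 7 oligodendrocyte markers tested, Mbp among them, were called lower in vehicle mice (median -0.62), and their mean log2 ranged from 12.36 to 13.60 over the vehicle libraries and from 13.42 to 13.72 over wild type. Of the 6 striatal markers (median -0.89) and the 6 olfactory bulb markers (median -0.46), 0 had a positive difference and 0 were called. The same held for the 6 activity genes (median -0.52). The only blood marker tested (0.88) and 1 of 7 excitatory markers (median 0.02) were called higher. Among 4 endothelium markers, 1 was called lower (median -0.22). The part of these marker changes in the proteasome result was not tested. In bulk tissue, fewer cells of a type and less RNA per cell cannot be told apart.

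**Figure D3:**
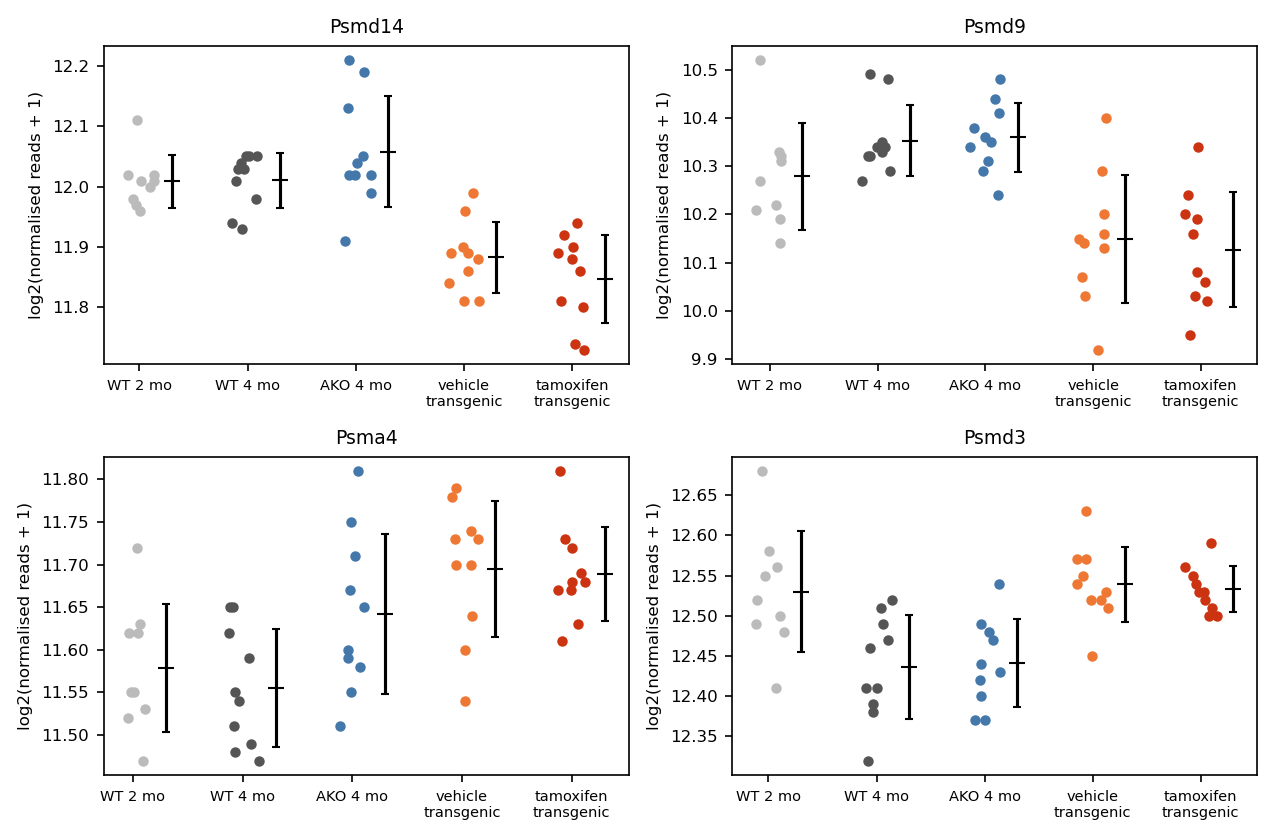
log2(normalised reads + 1) (y axis) of Psmd14, Psmd9, Psma4 and Psmd3 in each library (points) of the 5 groups (x axis). Black bars give the mean and SD. Both transgenic groups sat low for Psmd14, with means of 11.88 and 11.85 against 12.01 in both wild-type groups, and high for Psma4.

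A comparison that shares no library with the previous one set the tamoxifen-injected transgenic mice against wild-type mice at 2 months. It was added after the data were seen, and the groups differ in line, injection and months of diet. In it 1 of the 34 genes was higher and 5 were lower (17.6% called). Of all genes 8.12% were called, 3.62% higher and 4.50% lower. The 34 genes had a median of -0.051 against 0.006 over all genes. In the same range of levels, tested genes had a median of -0.007 at up to 1500 bases of transcript. It was -0.025 from there to 3000 bases and -0.014 over 3000 bases. The proteasome genes had medians of -0.022 (16 genes), -0.064 (16 genes) and 0.010 (2 genes) in these bins. Psmd14 ran from 11.73 through 11.87 to 11.94 after tamoxifen and from 11.96 through 12.01 to 12.11 in wild type, so the groups did not overlap, and it fell by 10.6% (-0.16, SE 0.03, limma adjusted p = 0.0045). Psma4 rose by 7.99% (0.11, SE 0.03, adjusted p = 0.049), from 11.61 through 11.68 to 11.81 against 11.47 through 11.55 to 11.72. Psma4 lost that call in 17 of 19 fits without a single library, with adjusted p up to 0.090.

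The other genes lower after tamoxifen than in wild type at 2 months were the lid subunit Psmd12 (-0.14, limma adjusted p = 0.012), the ATPase Psmc1 (-0.13, 0.021), Psma3 (-0.12, 0.026) and Psmd11 (-0.13, 0.040). These 4 calls were lost with scaling to total reads (adjusted p 0.074 for Psmd12, 0.090 for Psmc1, 0.15 for Psma3 and 0.089 for Psmd11), under which Psmd14 kept its call (0.048) and Psma4 and Psmb7 were higher. Psmd11 also lost its call in 11 of 19 fits without a single library, and Psma3 in 1. Without wild-type replicate 37, Psmb7 was called higher as well (0.13, adjusted p = 0.0078), the median over the 34 was -0.033, and 10.2% of all genes were called. Beside these differences, 3 of 5 microglia markers were called higher after tamoxifen (median 0.22). So were 1 of 3 choroid plexus markers (median 0.44) and the only blood marker tested (1.76). Called lower were 2 of 6 general neuronal markers and 1 of 6 activity genes (medians -0.10 and -0.65). Among inhibitory neuron markers 1 of 6 was called lower (median -0.14). The 7 excitatory markers had a median of -0.38 with none called. Of 7 oligodendrocyte markers (median -0.20) and 6 striatal markers (median -0.28), 0 had a positive difference and 0 were called. Of 6 olfactory bulb markers, 3 had a positive difference (median -0.08). Their part in the result was not tested. The catalytic genes in the fit with all libraries had 95% intervals of -0.19 to 0.00 (Psmb5), -0.09 to 0.10 (Psmb6) and 0.04 to 0.18 (Psmb7, adjusted p = 0.059).

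Psmd14 and Psma4 were thus called in the same direction in both comparisons of the transgenic line with wild type. Of the 34 genes, 22 had the same sign in both (64.7%), against 58.9% of all 15114 genes tested in both. Over all genes, 225 were called in both with the same sign, out of 939 called in the vehicle comparison and 1237 (18.2%) in the tamoxifen comparison. Psmd9 did not pass in the comparison with wild type at 2 months (-0.15, limma adjusted p = 0.083), nor did Psmd3 (0.00, adjusted p = 0.9910).

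A test over all 5 groups together asked which genes differed anywhere. The limma F test called 18 of 34 proteasome genes (52.9%), against 23.2% of all tested genes and 30.0% of the genes in the same range of levels. The calls fell on 6 of 8 lid genes, 3 of 7 alpha genes, 2 of 3 catalytic beta genes, 2 of 4 other beta genes, 2 of 6 ATPases, 1 of 3 other base genes and 2 of 3 chaperones. Psmd14 led (F = 16.58, limma adjusted p = 1.9e-06), followed by Psmd9 (10.89, 0.00011), Psma3 (10.69, 0.00012) and Psma2 (8.96, 0.00049). Next came the chaperone Psmd10 (7.27, 0.0019), with the widest span of group means, from 9.66 in vehicle mice to 9.91 in the libraries labelled AKO. Psmd12 (adjusted p = 0.0021), Psmd3 (0.0024), Psmc1 (0.0040), Psma4 (0.0042) and the beta subunit Psmb4 (0.0059) followed.

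The 5-group differences were small. The highest group mean exceeded the lowest by 0.08 to 0.26 log2 units over the 18 genes, with a median of 0.14. Among the 18, the highest mean was in the libraries labelled AKO for 10 genes and the lowest mean was in the tamoxifen mice for 11. The top and bottom of the order were thus mostly held by groups that the paired comparisons did not set against each other. Psmb5 had its highest mean in wild type at 4 months (11.41) and its lowest after tamoxifen (11.25), at F = 4.71 and limma adjusted p = 0.019. Psmb7 ran the other way, from 12.56 in wild type at 2 months to 12.67 after tamoxifen (F = 5.02, adjusted p = 0.014). Psmb6 was not called (11.92 to 12.01, adjusted p = 0.256), nor was the most abundant gene per length, Psmc5 (13.04 to 13.08, adjusted p = 0.838).

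**Figure D4:**
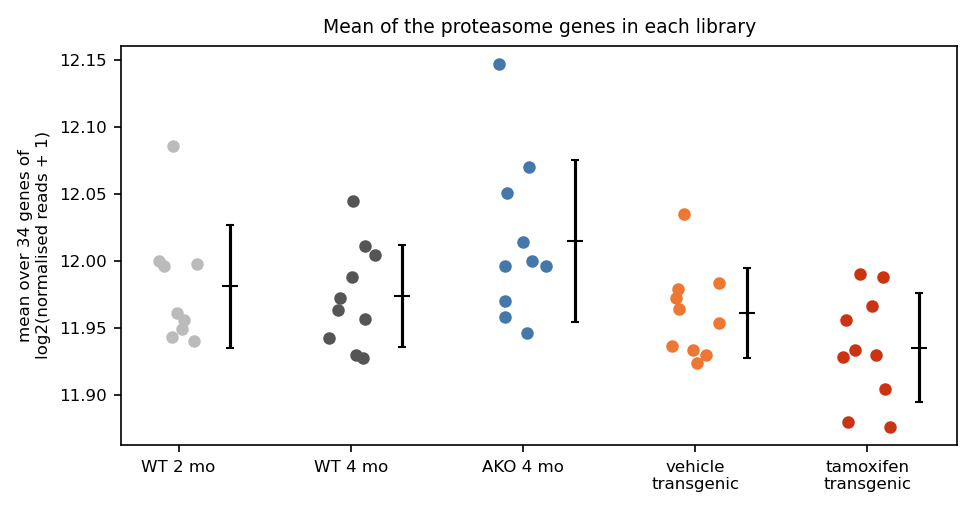
Mean over the 34 proteasome genes of log2(normalised reads + 1) (y axis) in each library (points) of the 5 groups (x axis), with group mean and SD in black. The groups overlapped, from 12.02 in the libraries labelled AKO to 11.94 after tamoxifen, and AKO replicate 6 was highest at 12.15.

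From library to library the proteasome genes moved together. After group means were subtracted, Pearson's r over 49 libraries had a median of 0.39 over the 561 pairs, and 88.4% of pairs were above 0. Pairs of the 7248 tested genes in the same range of levels had a median of 0.01, with 51.2% above 0. The proteasome genes correlated with nuclear oxidative phosphorylation genes at a median r of 0.36 and with cytosolic ribosomal protein genes at 0.30. The points share libraries and size factors, so these are descriptions without a p. Core genes correlated most with each other (median 0.56), ATPases with ATPases at 0.44, core genes with ATPases at 0.40, core genes with the lid at 0.32, and lid genes with lid genes at 0.22.

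The highest r in the set, 0.82, joined the alpha subunit Psma7 and the catalytic subunit Psmb6, and the ATPases Psmc1 and Psmc5 reached 0.79. Psmb4 had the highest median r with the other 33 genes, 0.60. A few genes stood outside. Psmd11 had a median r of -0.19 with the rest, and Psmd1 (0.08), Psmd2 (0.08), Psmd3 (0.12) and Psmd5 (0.14) were also under 0.2. These 5 were singled out after their values were seen, and their principal transcripts are longer (median 2961 bases, against 1430 for the other 29). The lengths overlapped, since the 5 ran from 2148 to 4397 bases. Psma2 (2911 bases) and Psma3 (2846 bases) had a median r of 0.47 and 0.36 with the rest. Among themselves the 5 had a median r of 0.24, and with oxidative phosphorylation genes one of -0.15.

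**Figure D5:**
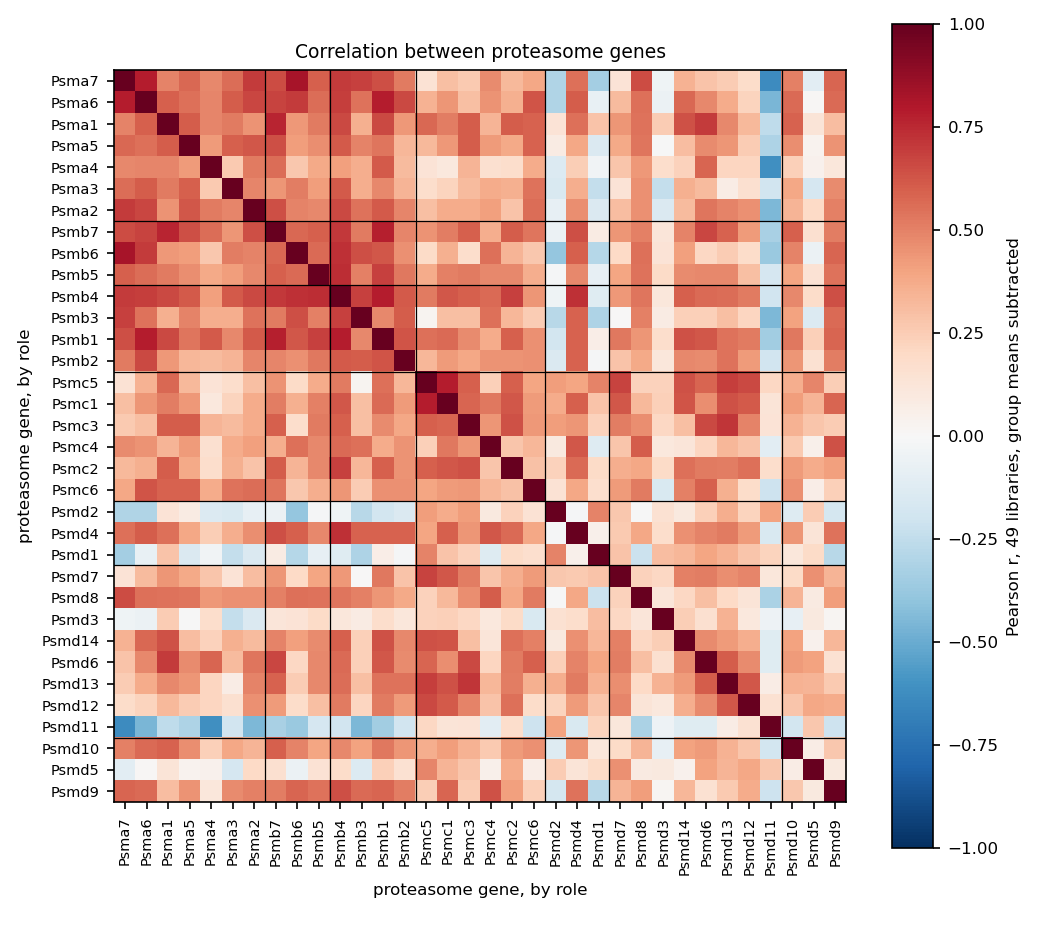
Pearson's r between each pair of the 34 proteasome genes over 49 libraries, group means subtracted (colour, -1 blue to 1 red), with genes in order of role and lines between roles. Core genes form a block of high r, with a median of 0.56, and the columns of Psmd11, Psmd1, Psmd2 and Psmd3 stand out as pale or blue.

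The closest gene of each proteasome gene, among all tested genes, was another proteasome gene in 4 of 34 cases and a nuclear gene of oxidative phosphorylation in 7. Psma1 was closest to Psmb7 (r = 0.76), Psmb6 to Psma7 (0.82), Psmc1 to Psmc5 (0.79) and Psmc2 to Psmb4 (0.69). Psma6 was closest to Sdhd (0.82), Psmb1 to Ndufs8 (0.82), Psma3 to Ndufa4 (0.71) and Psmc6 to Atp5f1 (0.71), which encode parts of the respiratory chain and ATP synthase. Psmb7 was closest to the myosin light chain gene Myl6 (0.79), Psmb5 to Ubxn6 (0.75), and Psmd14 to Timm17a (0.74), a part of the mitochondrial import channel. The remaining closest genes were Hint1 for Psma2, Uqcr11 for Psma4, H2afz for Psma5, Rnf7 for Psma7, Mt3 for Psmb2, Ndufb2 for Psmb3 and Tceb2 for Psmb4. In the base and lid they were Rtfdc1 for Psmc3, Eif4a1 for Psmc4, Prelid1 for Psmc5, Ywhab for Psmd1, Rap1gds1 for Psmd2, Slc22a17 for Psmd3, Uqcrc1 for Psmd4, Ran for Psmd6 and Smim10l1 for Psmd7. For Psmd8 it was Pdhb, for Psmd11 Rab5b, for Psmd12 Zc3h15 and for Psmd13 Nhp2, and for the chaperones Psmd5, Psmd9 and Psmd10 it was Otud6b, Chtop and Tomm40l. Among the 20 closest genes of each, 680 places in all, 59 were held by proteasome genes (33 other genes that could hold one). Genes with names that begin with Nduf, Cox, Uqcr, Atp5 or Sdh held 121. These prefixes take in more names than the 77 oxidative phosphorylation genes behind the median r of 0.36, so the 121 places have no matching gene count here.

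The shared movement went with a difference between short and long transcripts. In each library the median deviation of 755 other genes of at most 1500 bases was set against that of 4126 genes over 3000 bases, at the same range of levels. This difference ran from -0.12 to 0.29 log2 units and correlated with the mean of the proteasome genes (r = 0.74 over 49 libraries, 0.55 without the 3 libraries in which they were highest). It was 0.29 in wild-type 2-month replicate 37, 0.24 in AKO replicate 6 and 0.14 in vehicle replicate 3, which ranked 1, 2 and 4 of 49, with tamoxifen replicate 9 between them at 0.19. Single genes ran from r = -0.49 with it for Psmd11 to 0.81 for Psma7, and 30 of 34 were positive. With the length difference regressed out, the median r over the 561 pairs was 0.22 and 85.4% of pairs were above 0. Without the 3 libraries the median was 0.30.

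Around the constitutive set, 44 genes of the ubiquitin and proteasome pathway were in the table and 42 or 43 were tested in each comparison. None passed the limma test in the libraries labelled AKO against wild type (6 with an unadjusted p under 0.05) or in tamoxifen against vehicle (0 with an unadjusted p under 0.05). The inducible catalytic paralogs, which replace Psmb6, Psmb7 and Psmb5 in immune cells, lay below them, Psmb10 the least so. Over the groups the mean log2 was 5.69 to 6.17 for Psmb9, 10.47 to 10.73 for Psmb10 and 7.14 to 7.60 for Psmb8. Differences between genes on this scale are not per length.

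Psmb8 rose between 2 and 4 months of diet. It ran from 6.89 through 7.11 to 7.57 at 2 months and from 7.28 through 7.54 to 7.84 at 4 months, a difference of 0.39 (SE 0.10, limma adjusted p = 0.020) with all 10 libraries at 4 months above the 2-month mean. Psme2, a subunit of the interferon-induced activator cap, rose as well (0.20, adjusted p = 0.030), as did the ubiquitin-ribosomal fusion gene Rps27a (0.24, adjusted p = 0.0067), so 3 of 43 were higher and 0 lower, against 4.54% and 4.15% of all genes. In the same comparison 3 of 5 microglia markers and 4 of 5 astrocyte markers were called higher (medians 0.21 and 0.28), and their part in the rise of Psmb8 and Psme2 was not tested. Psmb10 was not called in that comparison (-0.12, adjusted p = 0.064), nor was Psmb9 (0.04, adjusted p = 0.9191).

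Psmb10 rose instead in vehicle-injected transgenic mice against wild type at 4 months, from 10.50 through 10.69 to 10.85 against 10.30 through 10.48 to 10.64 (0.24, SE 0.05, limma adjusted p = 0.0054). After tamoxifen against wild type at 2 months, the shuttle factors Ubqln4 (-0.23, limma adjusted p = 0.011) and Ubqln1 (-0.13, 0.047) and the nuclear activator Psme3 (-0.13, 0.020) were lower. Psme1, the partner of Psme2 in the activator cap, was higher (0.21, 0.031). Psmb10 was not called there (0.15, adjusted p = 0.064). The factors that control the subunit genes, Nfe2l1 and Nfe2l2, were called in none of the 5 comparisons. Pathway genes called by the F test over the 5 groups included Nploc4, a cofactor of the Vcp unfoldase, beside Psmb10, Ubqln4, Rps27a, Psme1, Psme3, Ubqln1 and Psme2. The same test called 23.2% of all tested genes, so these calls among 44 genes say nothing about the pathway as a whole.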

How the data were processed

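Frontal cortex RNA of 49 mice was sequenced after a TruSeq Stranded mRNA preparation, per the labels' protocols. The authors deposited log2 values of 24495 genes in a single table, while the software, the build and the way of normalizing are stated in none of the sources used here. Raising 2 to each deposited log2 value and subtracting 1 gave whole multiples of a step per library (99.92% to 100.00% of low values within 0.1 of a whole read), so the values are log2 of reads divided by a size factor, plus 1. Size factors by median of ratios matched these steps to within 0.044%. A value column that matched no sample (1 column) was not used, 27 symbols turned into dates were restored, and 7 genes without whole reads were left out. The closest pair of libraries in a group differed by a chi-square of 6.68 per gene, so no library was taken for a duplicate.

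Each comparison was fitted to its own 2 groups with limma 3.58.1 in R 4.3.3 (intensity trend, robust), two-sided, with Benjamini-Hochberg adjustment over all tested genes and a threshold of 0.05. A gene was tested if its depth-adjusted reads reached 10 in a number of libraries equal to the smaller group's size and if its recovered reads summed to 15 or more. The 5 groups together were tested with limma's F test. The fits were tested on simulated data. Alternatives were limma-voom on recovered reads, other filters (none, or a mean of 50 reads), a pseudocount of 10, total-read scaling, 1 model over 49 libraries, no trend or robust option, and single libraries left out. Transcript lengths and gene positions came from GENCODE M21 (GRCm38) and promoters from RefSeq (GRCm38.p6). Depth of 29.2 to 75.6 M reads put each proteasome gene at 562 reads or more in every library.

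The genes and lists were chosen with earlier results of these data known, so no list was tested. Named were all proteasome genes past the threshold (up to 12) or, where fewer than 5 passed, the 5 with the smallest p, as well as Psmb5 to Psmb10, the 3 highest and 3 lowest levels, the 3 largest and 3 smallest SDs, closest genes by correlation, and pathway genes past the threshold, of which some are not reported here. The comparison of tamoxifen with wild type at 2 months, the length gradient and the sets of libraries left out together were added after seeing the data.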

Additional observations from a re-analysis of the deposited data

Results flagged for a closer look

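A library was marked where its value stood apart from the rest of its group by Dixon's 95% criterion. Over 175 tests of a group, 20 values were marked, and chance marks about 1 in 20 groups. The marks were not spread over libraries but fell on 4.

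Wild-type 2-month replicate 37 was the highest of its 9 libraries for Psma7 (12.21, next 12.09), Psmb1 (12.62, next 12.47), Psmb4 (12.86, next 12.73), Psmb5 (11.59, next 11.37), Psmb6 (12.15, next 11.95), Psmb7 (12.74, next 12.59), Psmc4 (12.19, next 12.07), Psmd4 (12.30, next 12.19) and Psmd14 (12.11, next 12.02). Its mean over the 34 genes was 12.09. Psmd10 was marked for a low value in replicate 32 of the same group (9.60, next 9.72).

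Vehicle replicate 3 was the highest of its 10 libraries for Psma3 (12.38, next 12.23), Psma5 (11.92, next 11.79), Psma6 (12.14, next 11.98), Psma7 (12.27, next 12.11) and Psmb6 (12.18, next 12.03), with a mean over the 34 genes of 12.04, next 11.98. AKO replicate 6 was the highest for Psmc1 (13.24, next 13.13), Psmc3 (13.14, next 13.01) and Psmd13 (12.16, next 12.02). Core genes made up most marks of replicate 37 and all single-gene marks of vehicle replicate 3, whereas those of AKO replicate 6 were ATPase and lid genes.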

How the results depend on the processing

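No proteasome gene was called in the libraries labelled AKO against wild type or in tamoxifen against vehicle under any alternative, and the genes past the threshold or with the 5 smallest p in a comparison kept their sign under all. Between 2 and 4 months of diet, 1 gene (Psmd3) was called lower with all 49 libraries in 1 model and none otherwise. For vehicle against wild type, the count of higher genes was 1 in place of 2 without a filter, with total-read scaling and without trend and robust options, and the count of lower genes was 4 with all 49 libraries. With single libraries left out it was 1 to 2 higher and 2 to 6 lower. For tamoxifen against wild type at 2 months, the higher genes numbered 0 without a filter or without trend and robust options and 2 with total-read scaling or all 49 libraries, and the lower genes 1 with total-read scaling. With single libraries left out it was 0 to 2 higher and 4 to 6 lower. The F test called 14 to 19 genes without single libraries and 13 without AKO replicates 14 and 19 together. The median r between the genes was 0.56 with total-read scaling, 0.30 without the 3 libraries in which they were highest and 0.22 with the length gradient removed. With single libraries left out, the median difference over the genes was 0.026 to 0.053 (AKO label), -0.039 to -0.019 (tamoxifen against vehicle), -0.009 to 0.006 (diet times), -0.011 to 0.009 (vehicle against wild type) and -0.060 to -0.033 (tamoxifen against wild type). The cause of these changes was not tested. Under the replicate block over the 5 numbers that the libraries labelled AKO and wild type share, 0 genes were called and the median was 0.033. Same-numbered libraries correlated between -0.55 and 0.28, and 1 of 5 correlated best with its own number, so the numbers were not taken as pairs. At these depths and group sizes the 95% interval of a gene reached a median of 0.069 to 0.075 log2 units to either side.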

Other observations

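Gene sets near the proteasome genes in the library-to-library correlation were described in the same comparisons, without a test of the set. In the libraries labelled AKO against wild type, 66 of 76 nuclear oxidative phosphorylation genes and 70 of 72 cytosolic ribosomal protein genes had a positive difference (medians 0.053 and 0.085), and none of either passed the test. After tamoxifen against vehicle, 5 of 76 oxidative phosphorylation genes were positive (median -0.050), again with none called. Between 2 and 4 months of diet, 25 of 73 ribosomal protein genes were called higher and 0 lower (median 0.128), against 4.54% and 4.15% of all genes, in the comparison in which the proteasome genes had a median of -0.002.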
